A study of Mus musculus with 4 samples.

Results

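Granulocyte progenitors with primary granules made up 179 of the 49055 cells kept from the femoral epiphysis of young mice, or 0.365%. Kept cells had 500 genes or more, 1000 UMIs or more (unique molecular identifiers, the counted transcripts) and at most 15% of their UMIs from mitochondrial genes. A cell counted as a progenitor when it held UMIs of at least 3 of the 4 primary-granule genes Elane, Mpo, Prtn3 and Ctsg, and when these genes summed to at least 0.3% of its UMIs. The secondary-granule genes Ngp, Camp, Ltf and Lcn2 had to sum to under 3%, and so did S100a8 and S100a9, which encode the subunits of calprotectin. To leave out monocytes, the cell had to hold UMIs of fewer than 3 of the 7 genes Ccr2, Ly6c2, Adgre4, Gpr141, Klra2, Ear2 and Cybb. Because the cells were selected on the measured UMIs of these genes, the levels of the 4 granule genes are given as a description, and so is every difference from other cells of the same libraries.

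The study sequenced single cells from the femoral epiphysis, the end of the thigh bone, of wild-type mice at 7, 8, 10 and 12 days after birth, with no treatment in any group. Each day was 1 library, and the number of animals behind a library is not stated. The title names a postnatal route by which cartilage and endothelium give rise to blood stem cells. Tissue was digested with enzymes, red cells were removed, and the protocol text also names bowel cancer tissue. With 1 library per day there is no replicate, so no test was made, no p-value is given, and intervals are 95% intervals that cover counting error only.

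Primary (azurophil) granules are the first granules a developing granulocyte makes, at the promyelocyte stage, and they store serine proteases and myeloperoxidase until the mature cell kills microbes with them. Secondary granules, with lactoferrin and cathelicidin, follow at the myelocyte stage, when transcription of the primary-granule genes has mostly ceased. The transcription factors C/EBPα, PU.1, RUNX1, MYB and GFI1 start the primary programme and C/EBPε the secondary one. Basophil and eosinophil progenitors share part of the early programme.

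The promoter sequences of the 4 genes that define these cells are shown because the genes are expressed together. Elane encodes neutrophil elastase (ENSMUSG00000020125.8), Prtn3 proteinase 3 (ENSMUSG00000057729.13), Mpo myeloperoxidase (ENSMUSG00000009350.14) and Ctsg cathepsin G (ENSMUSG00000040314.3). Each run holds the 250 bases before the RefSeq gene start in build GRCm38.p6, 5′ to 3′ on the strand of the gene, and capitals mark every match to a searched motif.
Elane promoter, chr10:79886062-79886311, plus strand: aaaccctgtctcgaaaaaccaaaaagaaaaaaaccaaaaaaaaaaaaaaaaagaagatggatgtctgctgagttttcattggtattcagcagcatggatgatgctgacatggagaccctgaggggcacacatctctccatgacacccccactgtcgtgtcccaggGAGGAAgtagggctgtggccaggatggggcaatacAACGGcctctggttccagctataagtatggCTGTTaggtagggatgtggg
Prtn3 promoter, chr10:79879417-79879666, plus strand: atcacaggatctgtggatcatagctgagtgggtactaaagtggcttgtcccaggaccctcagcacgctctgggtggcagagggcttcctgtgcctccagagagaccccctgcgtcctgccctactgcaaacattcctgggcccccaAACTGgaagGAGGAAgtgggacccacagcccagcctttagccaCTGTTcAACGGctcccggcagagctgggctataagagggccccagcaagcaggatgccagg
Mpo promoter, chr11:87793534-87793783, plus strand: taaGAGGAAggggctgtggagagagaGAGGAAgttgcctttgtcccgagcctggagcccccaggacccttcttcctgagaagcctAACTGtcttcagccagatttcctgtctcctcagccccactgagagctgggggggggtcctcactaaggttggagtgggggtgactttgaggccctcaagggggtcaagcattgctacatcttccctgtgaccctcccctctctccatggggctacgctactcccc
Ctsg promoter, chr14:56102575-56102824, minus strand: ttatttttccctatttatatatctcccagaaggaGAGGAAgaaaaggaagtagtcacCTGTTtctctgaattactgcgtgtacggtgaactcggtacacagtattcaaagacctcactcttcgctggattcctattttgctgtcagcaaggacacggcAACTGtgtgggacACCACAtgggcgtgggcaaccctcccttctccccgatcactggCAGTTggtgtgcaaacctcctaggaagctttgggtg
Motifs were searched as letters on both strands, and all 4 windows held the PU.1 core GAGGAA, which 23.3% of 32851 promoter windows of the same length hold. It stood 85 bases before the start in Elane, 95 in Prtn3, 247 and 224 in Mpo and 216 in Ctsg. A MYB core, AACNG, was in all 4 as well, with 2, 3, 1 and 3 matches in Elane, Prtn3, Mpo and Ctsg, against 74.2% of all windows with any. The RUNX core TGTGGT matched Ctsg alone (14% of all windows), while the C/EBP motif TTGCNNAA (9.56%) and the GATA motif AGATAA (9.99%) matched none of the 4. No 2 of the marked matches overlapped. A match of letters is a description of the window, not a binding site.

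Library totals were 44218720, 46534365, 132282322 and 169323978 UMIs on days 7, 8, 10 and 12, with median depths of 3103, 3168.5, 7706.5 and 6563.5 UMIs per kept cell. Progenitors were deeper than the other cells, with medians of 7918, 7742.5, 10723 and 11270.5 UMIs and of 2681.5, 2709.5, 3551 and 3942.5 genes. Between 62 and 240 barcodes were shared by any pair of libraries, and no barcode was a progenitor in both libraries of a pair. Shared barcodes that were a progenitor in 1 library only were not counted. Free RNA was read from cartilage cells, which should lack the granule genes. After each cell was thinned to 1000 UMIs, Mpo had a UMI in 97.1% of progenitors and 1.36% of cartilage cells on day 12, and in 92% and 2.33% on day 10, at median depths before thinning of 7398 and 13538 UMIs in the cartilage cells of day 12 and day 10. For Elane the shares were 80% of progenitors and 0.82% of cartilage cells on day 12, and 71.3% and 1.71% on day 10. Both are genes of the rule, which sets the progenitor side. For Ms4a3, outside the rule, the shares were 62.9% and 0.22% on day 12, and 48.3% and 1.09% on day 10. For Srgn they were 68.6% and 8.54% on day 12 and 73.6% and 6.52% on day 10, and for Mcpt8 10% and 0.4%, and 8.05% and 0.466%.

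Progenitors were rare in every library and their share was lowest on day 7. There were 4 of 11309 kept cells on day 7 (0.0354%, exact interval 0.00964 to 0.0905), 18 of 11464 on day 8 (0.157%, 0.0931 to 0.248), 87 of 10028 on day 10 (0.868%, 0.695 to 1.07) and 70 of 16254 on day 12 (0.431%, 0.336 to 0.544). The intervals of the 4 libraries did not overlap, but they do not cover depth. The rule asks for UMIs of at least 3 genes, which the shallower libraries of days 7 and 8 meet less readily. Among cells with at least 5000 UMIs the share was 0.465% on day 8 and 0.545% on day 12. On days 7 and 10, 2 and 47 progenitors had that depth. Their shares at that depth are not given here, so the order of all days at equal depth is not shown. Set beside the granulocytes at the next stages, the order differed: progenitors were 57.1% of 7 cells on day 7, 60% of 30 on day 8, 13.1% of 663 on day 10 and 7.25% of 965 on day 12, where the total adds immature neutrophils (secondary-granule genes at 3% of UMIs or more) and later neutrophils. The intervals of the first 2 shares were wide, at 18.4 to 90.1% and 40.6 to 77.3%, and those of the last 2 were 10.6 to 15.9% and 5.7 to 9.08%. Later neutrophils were other cells with S100a8 and S100a9 at 3% or more, without 3 granule genes at 0.3% or more. Cells with such granule genes that the calprotectin limit removed, 2, 39 and 13 on days 8, 10 and 12, are not in these totals. A dissected tissue gives shares only among the cells that were released and captured, and the blood or marrow in each dissection was not measured.

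**Figure D1:**
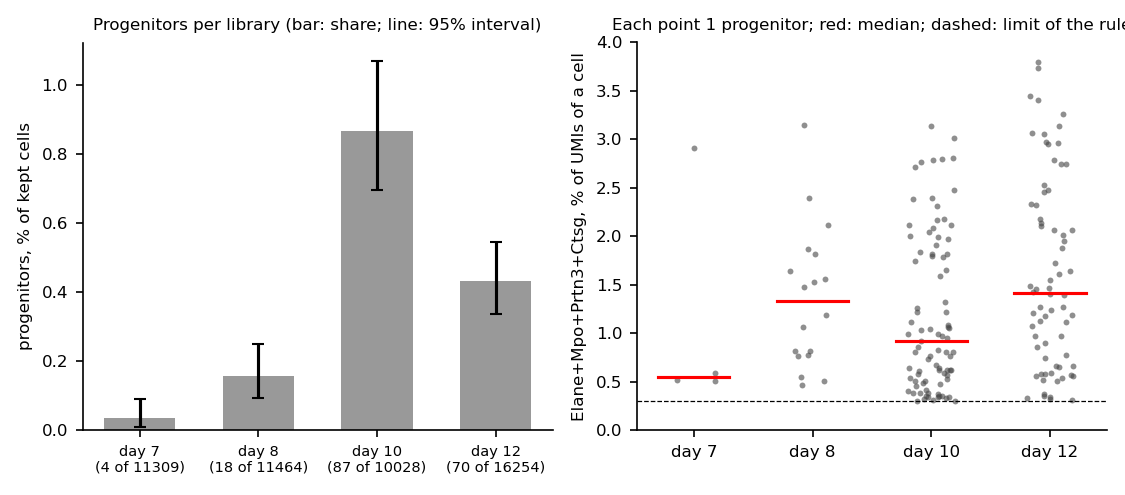
Granulocyte progenitors by day: on the left their share of kept cells (bars, %, with exact 95% intervals), on the right the summed share of Elane, Mpo, Prtn3 and Ctsg in each progenitor (points, % of the UMIs of the cell, with a red bar at the median and a dashed line at the limit of 0.3%). The share of kept cells was 0.0354, 0.157, 0.868 and 0.431% on days 7, 8, 10 and 12, and the medians on the right were 0.551, 1.33, 0.921 and 1.41%.

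The conditions removed different cells on different days. UMIs of 3 granule genes at 0.3% or more were found in 4, 20, 170 and 124 cells on days 7, 8, 10 and 12. The calprotectin limit then removed 2 cells on day 8, 39 on day 10 and 13 on day 12, the secondary-granule limit 12 on day 10 and 5 on day 12, and the monocyte condition 32 on day 10 and 36 on day 12. The monocyte condition counts genes with any UMI, so deep cells are removed by it more readily. Whether the removed cells were monocytes was not tested. At the edge of the share limit the lowest progenitor of day 12 had 0.31% and the highest excluded cell 0.296%, while on day 10 these were 0.3% and 0.287%. All 4 granule genes had a UMI in 136 of the 179 cells. The sum of the 4 genes had a median of 0.551, 1.33, 0.921 and 1.41% of a cell's UMIs on days 7, 8, 10 and 12, and a maximum of 2.91, 3.15, 3.14 and 3.8%.

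Levels below are CPM, the UMIs of a gene per 1000000 UMIs summed over the progenitors of a library, so deep cells weigh more. Elane was at 3278 CPM on day 7, 3032 on day 8, 3670 on day 10 and 5516 on day 12. Mpo was at 2801, 3545, 4834 and 6170 CPM on the same days, Prtn3 at 2771, 2790, 2388 and 3387 CPM, and Ctsg at 6347, 3983, 3024 and 2581 CPM. The order of days thus differed among the 4: Mpo was higher at each later day, Ctsg lower at each later day, and Elane and Prtn3 were highest on day 12. The day 7 values rest on few cells, since a lone cell gave all 110 Elane UMIs and 70.9% of the Ctsg UMIs of that day. On days 10 and 12 no progenitor gave more than 9.49% of the UMIs of any of the 4 genes. Of all Elane UMIs in kept cells, progenitors held 94, 57.8, 32.2 and 51.1% on days 7, 8, 10 and 12, although they held only 0.0783, 0.327, 1.08 and 0.508% of all UMIs.

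Genes outside the rule that were concentrated in these cells included other granulocyte-progenitor genes and basophil genes. Ms4a3 (ENSMUSG00000024681.12), a membrane protein whose locus is used in mice to trace the progeny of granulocyte-monocyte progenitors, was at 1162, 1166, 1264 and 1500 CPM on days 7, 8, 10 and 12. Progenitors held 47.4% of its UMIs on day 12 and 35.7% on day 10. For Prss57, which encodes neutrophil serine protease 4, the parts were 42.2% on day 12 and 28.1% on day 10. Nkg7, a granule membrane protein known from cytotoxic lymphocytes, had 16.9% on day 12 and 24.5% on day 10, and Gfi1, a repressor needed for neutrophil formation, had 16.2% and 19.7%. Rab44, a large Rab GTPase, had 14.3% and 21.8%, and Nrg2, an EGF-family growth factor, had 16.3% and 16.4%. The remaining 4 of the 10 genes with the largest parts on day 12 were the basophil and mast-cell genes Prss34, Mcpt8, Ms4a2 and Cpa3.

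The progenitors were not uniform, and they were ordered here by the sum of the 4 granule genes. No other order was compared with it. Among cells with at least 5000 UMIs, and leaving out the basophil and eosinophil subsets and the 3 globin-rich cells described below, 10, 13 and 21 cells of day 12 lay under 1%, at 1 to 2% and over 2%, against 6, 9 and 17 cells of day 10. These ranges were set after the values were seen and cut a continuous score, with 1 cell on day 12 and 4 on day 10 near the lower limit, and 6 and 13 near the upper one. As the ranges use the 4 genes, those genes differ between them by construction, with Elane at 1013, 4036 and 9882 CPM on day 12 and at 1024, 4216 and 8219 CPM on day 10.

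Genes that the ranges do not use differed along the same order. Cd34, a surface sialomucin of early progenitors, was at 284, 114 and 14.6 CPM from the lowest to the highest range on day 12, and at 148, 52.4 and 2.43 CPM on day 10. Flt3, the receptor of early lymphoid and myeloid progenitors, was at 94.6 and 18.3 CPM in the lower ranges of day 12 and at 19.1 and 16.4 CPM in those of day 10, and had 0 UMIs in the highest range of both days. Cd34 was thus lower with each higher range in both libraries, while the lower ranges of Flt3 on day 10 rest on 4 and 5 UMIs. Kit, the stem cell factor receptor, had a narrower spread, with 209, 183 and 111 CPM on day 12 and 163, 108 and 97 CPM on day 10.

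Cebpe, Fcnb, Gfi1, Ms4a3 and Srgn ran the other way. Cebpe, which drives the secondary-granule programme, was at 6.75, 91.3 and 102 CPM on day 12 and at 43.1, 151 and 177 CPM on day 10. Fcnb, which encodes ficolin B and is made at the promyelocyte and myelocyte stages in mice, was at 6.75, 100 and 284 CPM on day 12 and at 19.1, 62.2 and 296 CPM on day 10. Gfi1 was at 27, 59.3 and 99.4 CPM on day 12 and at 28.7, 94.9 and 119 CPM on day 10. Ms4a3 was at 338, 1251 and 2515 CPM on day 12 and at 675, 1709 and 2285 CPM on day 10, and Srgn, the proteoglycan that packs granule proteases, at 520, 1648 and 3553 CPM and at 1426, 2573 and 4262 CPM. S100a8 and S100a9 together were at 493, 3483 and 5694 CPM on day 12 and at 335, 3980 and 11518 CPM on day 10, all under the limit of the rule. A cell of 34448 UMIs, the deepest in the lowest range of day 12, gave 62 of the 73 calprotectin UMIs and 104 of the 150 Elane UMIs there, and without it these were at 96.8 and 405 CPM. In cells with at most 3% RNA of other lineages, 8, 7 and 20 on day 12, Cd34 was at 386, 166 and 14.9 CPM, Fcnb at 0, 23.6 and 278 CPM and Cebpe at 0, 63.1 and 105 CPM, the same order as in all cells of the ranges, and S100a8 and S100a9 together were at 84.7, 394 and 5746 CPM. Kit was at 245, 252 and 111 CPM in these cells of day 12, so it did not fall between the lower ranges. On day 10 it was at 163, 120 and 96.6 CPM in such cells. The 4 libraries cannot tell a sequence in time from a mixture of cell kinds.

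Gene groups were also summed over the cells of each range. The stem and early progenitor list summed to 811, 251 and 216 CPM from the lowest to the highest range on day 12 and to 560, 386 and 158 CPM on day 10. The ribosome-production list summed to 7815, 7985 and 6873 CPM on day 12 and to 9225, 6445 and 5837 CPM on day 10, and Npm1 of that list was at 3357, 3328 and 2498 CPM and at 3397, 2311 and 1781 CPM. Secretory genes stayed within 11232 to 13367 CPM on day 12 and 9929 to 10477 CPM on day 10 across the ranges. In cells with at most 3% RNA of other lineages they were at 9878, 13769 and 12729 CPM on day 12. In such cells of day 10 they were at 10287, 10794 and 10173 CPM. S-phase genes summed to 3701, 3278 and 3843 CPM on day 12 and to 3100, 2402 and 3151 CPM on day 10, and G2 and M genes to 1608, 1493 and 1933 CPM and to 1789, 1911 and 2149 CPM, so cycle genes were present in every range of both days. The stromal list was at 37540, 9779 and 5229 CPM in the same ranges on day 12 and at 4579, 10880 and 4767 CPM on day 10. Single cells set the highest of these values: 84.4% of the stromal UMIs of the lowest range of day 12 came from the cell of 34448 UMIs, and 80% of those of the middle range of day 10 from another. Without them the levels were 7614 and 2571 CPM, and the stem and early progenitor list in cells with at most 3% RNA of other lineages was at 951, 323 and 221 CPM on day 12 and at 560, 286 and 163 CPM on day 10.

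**Figure D2:**
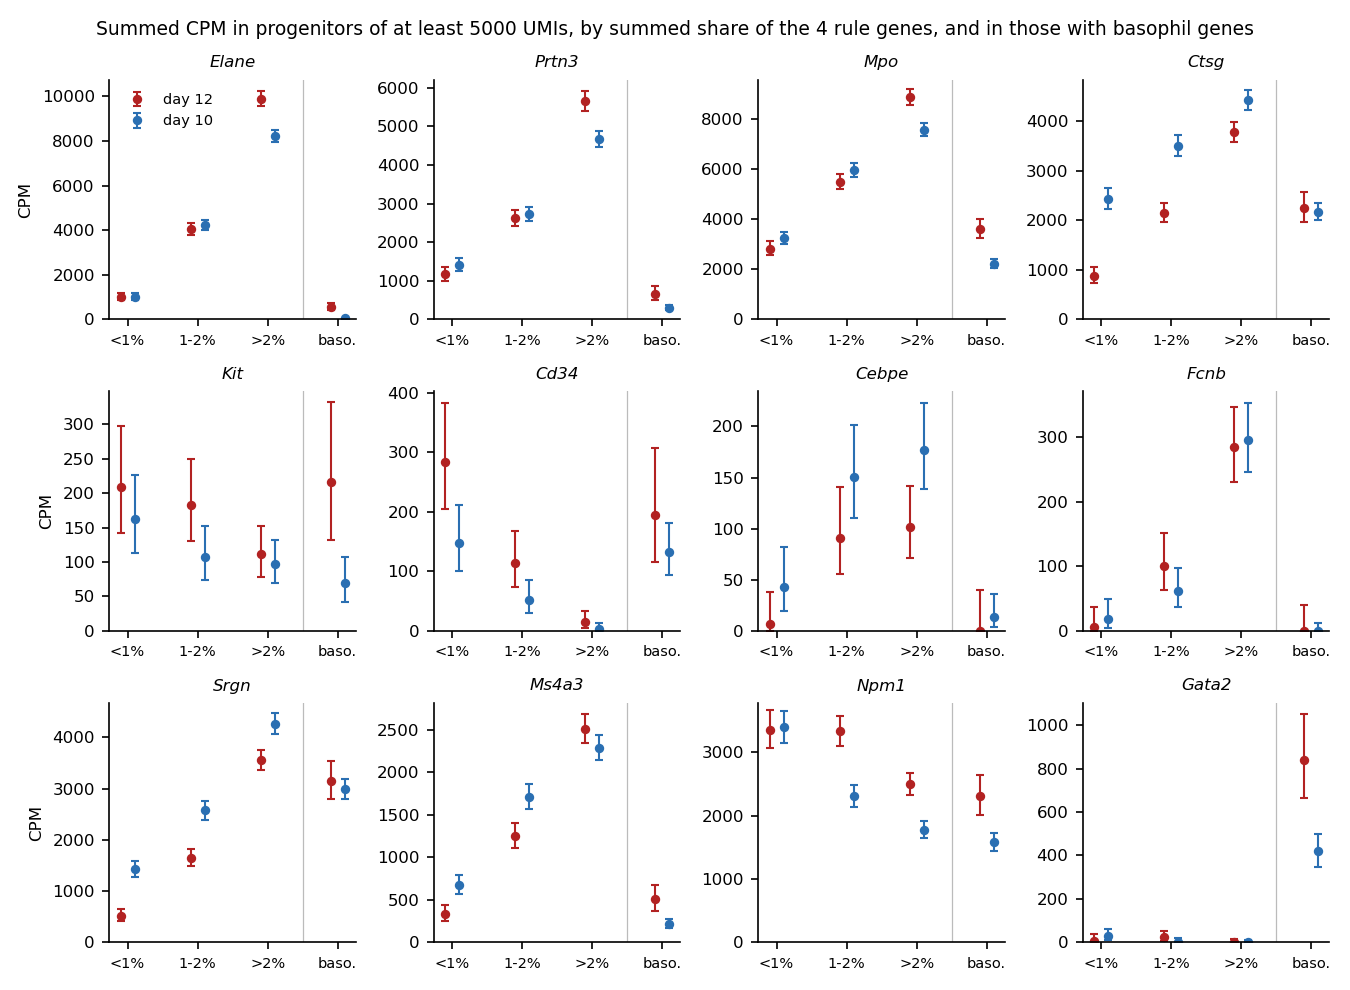
Levels of 12 genes (CPM, each panel with its own linear axis from 0) in progenitors with at least 5000 UMIs, split by the summed share of Elane, Mpo, Prtn3 and Ctsg at under 1%, 1 to 2% and over 2%, and in the subset with basophil genes, with day 12 and day 10 as separate points and exact 95% intervals. Cd34 was at 284 CPM under 1% and 14.6 CPM over 2% on day 12, while Fcnb was at 6.75 and 284 CPM in the same ranges.

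A subset of 18 progenitors, 8 on day 12 and 10 on day 10, carried at least 20 UMIs of the basophil and mast-cell protease genes Mcpt8, Prss34 and Cpa3, leaving aside 2 cells of day 10 with eosinophil genes, and none did on days 7 and 8. They were 10.1% of all progenitors, and the limit was set after the values were seen, with 2, 2, 6 and 4 cells on days 7, 8, 10 and 12 between 10 and 40 UMIs. The limit is a fixed count, which shallower libraries meet less readily. Prss34 had no UMI in 2 of the 8 cells of day 12 and in 3 of the 10 of day 10. A day 12 cell of 14055 UMIs passed on 37 Cpa3 UMIs alone and held 14 UMIs of Kit and Cd34. The subset is thus named for its genes and need not be 1 cell type. Mpo and Ctsg had UMIs in all 18, with 3 to 121 Mpo UMIs per cell (median 27) on day 12 and 6 to 178 (median 51.5) on day 10, and 11 to 38 Ctsg UMIs (median 24) on day 12 and 29 to 111 (median 62) on day 10. Elane had no UMI in 5 of the 8 cells of day 12 and in 7 of the 10 of day 10. In the subset Elane was at 560 CPM on day 12 and at 48.9 CPM on day 10. On day 12, 50 of its 52 UMIs came from 1 cell that lay at the limit of 20 basophil UMIs, and without it the level was 29.8 CPM. On day 10, 12 of 14 UMIs came from 1 cell. The rule thus met these cells mainly through Mpo, Ctsg and Prtn3.

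The basophil subset also differed in genes outside both selections. Gata2, a transcription factor of basophil, mast and stem cells, was at 840 CPM on day 12 and at 419 CPM on day 10, against 2.92 to 22.8 CPM on day 12 and 0 to 28.7 CPM on day 10 in the 3 ranges without basophil genes. Cebpe was at 0 CPM on day 12 and at 14 CPM on day 10 in the subset. Low counts of Cebpe and Fcnb were not particular to the subset, since the range under 1% also held few UMIs of both. That range had 1 Cebpe UMI and 1 Fcnb UMI on day 12, both from the cell of 34448 UMIs. Its day 10 cells had 9 Cebpe UMIs, and 4 Fcnb UMIs that all came from 1 cell. Within the 18 cells of the subset, Fcnb had no UMI. Meis1, a homeobox gene of stem and progenitor cells, was at 43.1 CPM on day 12 and at 69.8 CPM on day 10, between the values of the ranges without basophil genes on day 12 and above them on day 10. Over all progenitors Mcpt8 was at 298, 182, 974 and 801 CPM on days 7, 8, 10 and 12, Prss34 at 0, 0, 621 and 916 CPM, and Cpa3, the mast-cell carboxypeptidase, at 596, 108, 482 and 299 CPM. Prss34 UMIs were found in 7 cells on day 12 and 8 on day 10, so its level describes few cells. The top cell gave 33.9% of the Mcpt8 UMIs of day 12 and 22.8% of those of day 10.

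**Figure D3:**
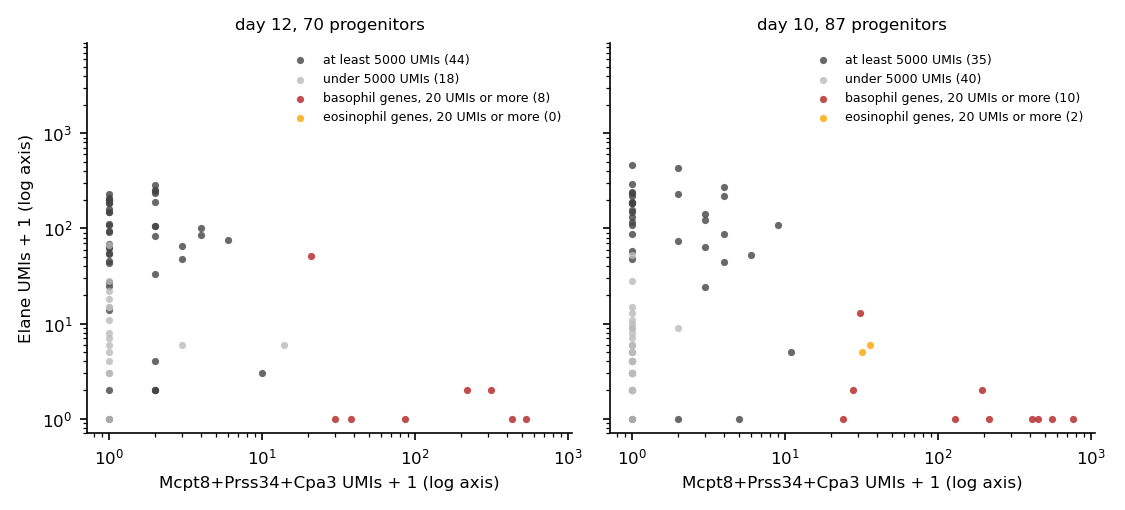
Each point is a progenitor of day 12 or day 10, with its Elane UMIs on the vertical axis and the summed UMIs of Mcpt8, Prss34 and Cpa3 on the horizontal axis, both on log scales with 1 UMI added, and colours for the basophil subset, the eosinophil subset and the cells under 5000 UMIs. In the basophil subset, Elane had no UMI in 5 of the 8 cells of day 12 and in 7 of the 10 of day 10.

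Other subsets were smaller. On day 10, 2 cells held 184 and 430 of the 616 UMIs of Prg2, the eosinophil major basic protein, and both also held over 20 UMIs of the basophil genes. Prg2 was at 9.44 CPM on day 12 and at 439 CPM on day 10. A further 3 cells of day 10, with granule shares under 1%, had hemoglobin genes at 16.3 to 18.1% of their UMIs. Deep cells of day 12 with much hemoglobin RNA stayed in the ranges, 1 over 2% with 20.6% of its UMIs and 2 at 1 to 2% with 9.07% and 5.145%. There were 67 progenitors with under 5000 UMIs, which the ranges above leave out: 2, 7, 40 and 18 on days 7, 8, 10 and 12. In them the stromal list was at 28702 CPM on day 12 and at 41218 CPM on day 10, and the erythroid list at 17287 and 35082 CPM, while Elane was at 4601 CPM on day 12 and at 2716 CPM on day 10. The secondary-granule share also divided the cells, but along depth. On day 12, 56, 11 and 3 cells lay under 0.1%, at 0.1 to 0.5% and at 0.5 to 3%, with median depths of 14250.5, 2757 and 2276 UMIs, and on day 10, 67, 11 and 9 cells had median depths of 19535, 1834 and 2400 UMIs. Stromal genes in these ranges were at 12386, 27297 and 13816 CPM on day 12 and at 8318, 29652 and 49728 CPM on day 10. They were thus highest in the highest range on day 10 but not on day 12, and the part of other cells' RNA in the secondary-granule share was not tested.

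Immature neutrophils, the next stage, numbered 286 on day 12 and 282 on day 10, with median depths of 3598 and 8078 UMIs. Genes were compared within each library where progenitors and the other class together held at least 50 UMIs of the gene, and a gene was called when it was at least 2-fold higher, or at least 2-fold lower, in progenitors in both libraries. Of 6176 genes, 26.2% were called higher and 7.27% lower, and the median log2 ratio of all genes was 0.39 on day 12 and 0.68 on day 10. Both classes were cut by the granule genes, so the contrast describes the cut. With the 10 granule and calprotectin genes left out of the totals, since they fill much of an immature neutrophil's RNA, these medians moved by -0.24 and -0.33, and the calls went to 1164 higher and 614 lower (65.5% higher), against 1618 higher and 449 lower (78.3% higher) with all genes.

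Primary-granule and progenitor genes were higher in progenitors, while every measured secondary-granule gene outside the rule was lower. Of 10 further primary-granule genes with enough UMIs, of 12 listed, 5 were called higher and 0 lower, with median log2 ratios of 1.08 on day 12 and 1.33 on day 10. Srgn was at 2387 CPM in progenitors and 402 CPM in immature neutrophils on day 12, and at 2797 and 430 CPM on day 10, which is 5.94-fold and 6.51-fold higher. Cst7, which encodes the cathepsin inhibitor cystatin F, was at 169 and 1.4 CPM on day 12 and at 207 and 7.34 CPM on day 10. Nkg7, Prss57 and Gusb, the lysosomal β-glucuronidase, were the other genes called. Serpinb1a, the inhibitor that holds neutrophil proteases in check, did not differ by 2-fold, with 447 CPM in progenitors and 454 CPM in immature neutrophils on day 12 and 447 and 457 CPM on day 10.

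On the progenitor side, 5 of 9 surface genes were called higher and 0 lower, with medians of 1.52 and 2.22 on days 12 and 10. Kit was at 162 CPM in progenitors and 21 CPM in immature neutrophils on day 12, and at 103 and 17.3 CPM on day 10. Cd34 was at 109 and 24.5 CPM on day 12 and at 77 and 13 CPM on day 10. The others were Ms4a3, Spn (the sialophorin CD43) and Cd48, a signalling lymphocyte ligand. All 13 secondary- and tertiary-granule genes outside the rule were called lower, with medians of -6.28 on day 12 and -5.24 on day 10. Lyz2, lysozyme, was at 49.6 CPM in progenitors and 4942 CPM in immature neutrophils on day 12 and at 81.2 and 5362 CPM on day 10. Ltb4r1, a leukotriene B4 receptor, stood nearest, at 110 CPM in progenitors and 289 CPM in immature neutrophils on day 12 and at 79.1 and 268 CPM on day 10. Fcnb was at 153 and 612 CPM on day 12 and at 108 and 795 CPM on day 10.

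Transcription factors divided in both directions. Of 13 with enough UMIs, of 14 listed, Cebpa, Gfi1, Myb, Myc and Etv6 were called higher and Cebpe, Klf5 and Ets1 lower, with a median of 0.19 on day 12 and 0.71 on day 10. The median was -0.05 on day 12 with the granule genes left out of the totals. Myb, needed for the growth of early progenitors, was at 473 CPM in progenitors and 30.7 CPM in immature neutrophils on day 12 and at 435 and 26 CPM on day 10. Cebpa, the factor that opens the granulocyte programme, was at 75.5 and 9.08 CPM on day 12 and at 61.3 and 2 CPM on day 10. Cebpe was at 68.4 and 279 CPM on day 12 and at 112 and 295 CPM on day 10, which is 4.07-fold and 2.64-fold lower. Spi1, which encodes PU.1, was not called, with 228 CPM in progenitors and 391 CPM in immature neutrophils on day 12 and 161 and 315 CPM on day 10. Irf8, the factor of the monocyte fate, had 0 UMIs in all kept cells of all 4 libraries, so no level is read for it.

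The secretory pathway and ribosome production were higher as groups. Of 26 genes of the endoplasmic reticulum's folding and export machinery 25 were called higher and 0 lower, and 22 with the granule genes left out of the totals, with medians of 1.83 on day 12 and 2.3 on day 10. Calr, a calcium-binding chaperone of the reticulum, was at 1279 CPM in progenitors and 134 CPM in immature neutrophils on day 12 and at 1249 and 70.7 CPM on day 10. Xbp1, a factor of the unfolded protein response, was the gene not called. All 13 ribosome-production genes with enough UMIs, of 15 listed, were called higher, with medians of 2.92 and 3.05 on days 12 and 10. Npm1, the nucleolar chaperone nucleophosmin, was at 2820 and 293 CPM on day 12 and at 2126 and 214 CPM on day 10. Summed, the ribosome-production genes were at 10727, 11779, 6295 and 7064 CPM in progenitors on days 7, 8, 10 and 12.

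Genes of DNA replication and of mitosis did not go together. Of 15 S-phase genes 7 were called higher and 0 lower (Mcm2, Mcm3, Mcm5, Mcm6, Mcm7, Ung and Dut), with medians of 1.82 on day 12 and 0.84 on day 10, of which the Mcm genes encode the helicase that opens DNA. Of 14 genes of the G2 and M phases 0 were called in either direction, with medians of -0.05 and 0.32 on days 12 and 10. Mki67, a marker of cycling cells, was at 179 CPM in progenitors and 347 CPM in immature neutrophils on day 12 and at 248 and 300 CPM on day 10. RNA of other lineages was present in both classes: the erythroid list was at 6851 CPM in progenitors and 5924 CPM in immature neutrophils on day 12 and at 20061 and 21411 CPM on day 10, and the stromal list at 13383 and 23586 CPM on day 12 and at 9764 and 12350 CPM on day 10. Without progenitors over 3% RNA of other lineages, 1582 genes were called higher and 565 lower, against 1618 and 449 with all progenitors. That filter was set on progenitors only, and the part of such RNA in single differences was not tested.

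Genes of the NADPH oxidase, which makes superoxide, were lower in progenitors. Of 5 outside the rule 4 were called lower, Cyba among them, with medians of -1.62 and -1.54 on days 12 and 10. Cybb, the catalytic subunit and a gene of the rule, is left out of this count. Rac2, the GTPase that activates the oxidase, was the gene not called, at 497 and 975 CPM on day 12 and at 433 and 798 CPM on day 10. Of 9 homing and chemotaxis receptors 4 were called lower, namely Cxcr2, Itgb2, Ccr1 and Fpr1. Fpr1, the formyl peptide receptor, had no UMI in any progenitor. Of 7 growth factor receptor genes Kit and Ifngr1, the interferon-γ receptor, were called higher and Csf2ra, the GM-CSF receptor α chain, lower. Among all genes 26.2% were called higher and 7.27% lower, so these receptor counts are near the background. Csf2ra was no longer past 2-fold on day 12 without the basophil and eosinophil subsets (-0.99 on the log2 scale). Csf3r, the G-CSF receptor, was at 49.6 CPM in progenitors and 89.4 CPM in immature neutrophils on day 12 and at 39.9 and 46.4 CPM on day 10.

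Among the 10 genes with the largest ratios above immature neutrophils were Mcpt8, Prss34, Cpa3, Ms4a2, Cst7, Gria3 and Nrg2, with Ctsg and Mpo of the rule. Of the eosinophil, basophil and mast-cell list, 5 of 6 genes were called higher. Without the 18 cells of the basophil subset and the 2 of the eosinophil subset, 1 gene had enough UMIs and 0 were called. Gria3, an AMPA glutamate receptor subunit, was at 224 and 11.2 CPM on day 12 and at 128 and 7 CPM on day 10, with UMIs in 46 progenitors on each day. At the other end stood Ngp and Ltf of the rule with Olfm4, Stfa2, Stfa3, Ifitm6, AA467197, Cd177, Cstdc4 and Stfa2l1. The stefin A genes are near-identical copies and their separate values are uncertain. AA467197 had no UMI in progenitors of either day, against 367 and 522 UMIs in immature neutrophils of days 12 and 10, which makes it at least 72.4-fold and 81.4-fold lower with a floor of 3 counts over the progenitors of a library.

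**Figure D4:**
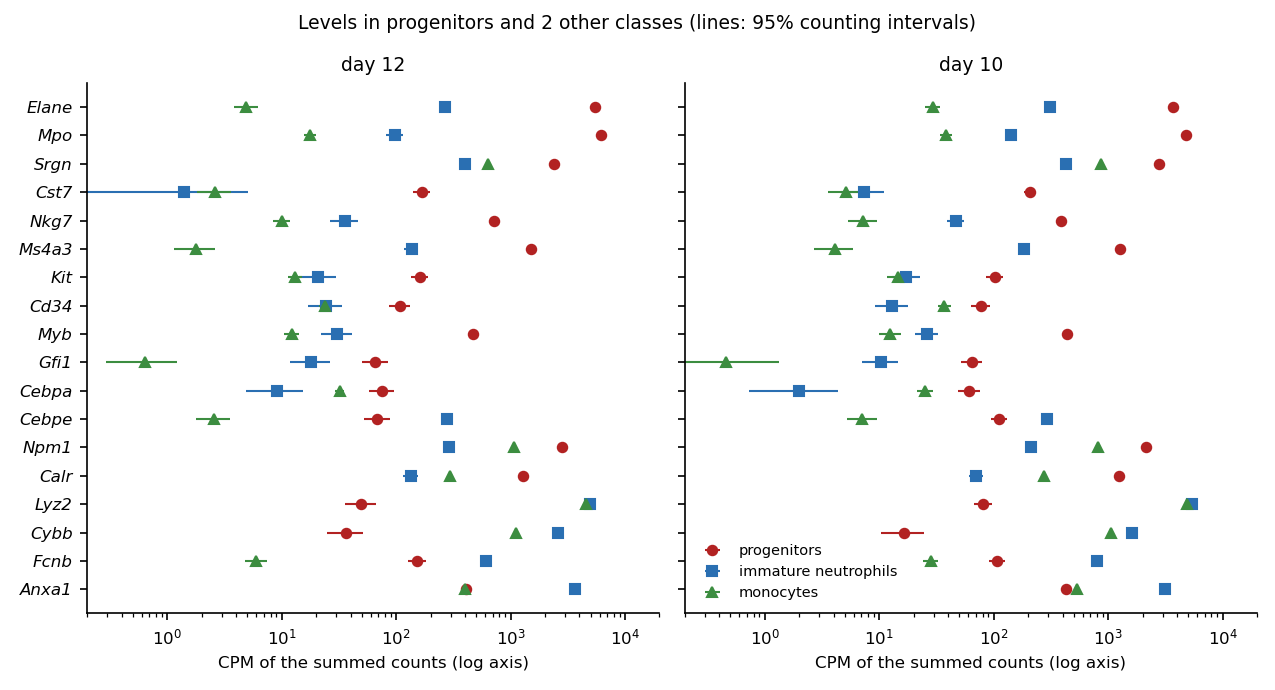
Levels of 18 genes (CPM, log axis) in progenitors, immature neutrophils and monocytes of day 12 and day 10, with exact 95% intervals. Calr was at 1279 CPM in progenitors, 134 CPM in immature neutrophils and 296 CPM in monocytes on day 12, and Gfi1 at 66.1, 18.2 and 0.637 CPM.

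Monocytes, the sister lineage, numbered 1606 on day 12 and 366 on day 10. Of 10084 genes tested in the same way, 7.63% were called higher and 15.9% lower in progenitors, and the median of all genes was 0.01 on day 12 and -0.09 on day 10. Gfi1 was at 66.1 CPM in progenitors and 0.637 CPM in monocytes on day 12 and at 64.1 and 0.455 CPM on day 10, which rest on 9 and 3 monocyte UMIs. Cebpe was at 68.4 and 2.55 CPM on day 12 and at 112 and 7.13 CPM on day 10, and Ms4a3 at 1500 and 1.77 CPM on day 12 and at 1264 and 4.1 CPM on day 10. Of 13 transcription factors Cebpa, Cebpe, Gfi1, Myb and Myc were called higher and Cebpb and Rara lower. Cebpe was thus lower in progenitors than in immature neutrophils and higher than in monocytes in both libraries.

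Of 11 further primary-granule genes 6 were called higher than in monocytes (Prss57, Srgn, Cst7, Serpinb1a, Cd63 and Nkg7) and 2 lower, Ctsc among them, with medians of 1.23 and 1.7 on days 12 and 10. Without the basophil and eosinophil subsets Cd63, a granule membrane tetraspanin, was just under 2-fold on day 12, at a log2 ratio of 0.99. Ctsc, the protease that activates elastase and its relatives, was at 93.2 CPM in progenitors and 602 CPM in monocytes on day 12 and at 60.6 and 800 CPM on day 10. Ribosome-production genes were called higher in 12 of 15, with medians of 1.56 and 1.4, and secretory genes in 8 of 26, with medians of 1.05 and 0.78. S-phase genes were called higher in 5 of 16, with medians of 2.04 on day 12 and 0.77 on day 10. G2 and M genes were called higher in 0 of 14, which is near the background, as 7.63% of all genes were called. Their medians were 0.92 on day 12 and 0.1 on day 10. All 11 monocyte genes outside the rule were called lower, with medians of -3.86 and -4.02, and their sum was at 687 CPM in progenitors and 8359 CPM in monocytes on day 12 and at 666 and 8959 CPM on day 10. Csf1r, the receptor for the monocyte growth factor, was at 16.5 and 297 CPM on day 12 and at 14.3 and 257 CPM on day 10. Of 7 dendritic-cell genes 6 were called lower, among them H2-Aa and Cd74 of antigen presentation, and 5 of 8 interferon-induced genes.

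Of 11 progenitor surface genes Kit, Cd34 and Ms4a3 were called higher than in monocytes and Cd244a, a receptor of the same family as CD48, lower. Kit was at 162 CPM in progenitors and 13.2 CPM in monocytes on day 12 and at 103 and 14.6 CPM on day 10. Cd34 was at 109 and 23.9 CPM on day 12 and at 77 and 37.2 CPM on day 10, and without the basophil and eosinophil subsets its log2 ratio of day 10 was 0.76, below 2-fold. Of 11 growth factor receptor genes Kit was called higher and 5 lower, among them Csf1r, Il6ra, which binds interleukin 6, and Csf2ra. The 10 genes with the largest ratios above monocytes were Prss34, Mcpt8, Ms4a3, Ctsg, Ms4a2, Mpo, Elane, Gfi1, Prss57 and Nkg7. Those with the largest ratios below were Sirpb1c, H2-Aa, H2-Eb1, Ifi207, Cd74, Ear2, Wfdc17, Arhgef37, Clec4a3 and Ifi204. Of these, Ctsg, Mpo, Elane and Ear2 are genes of the rule and also bound the monocytes, so their ratios follow from the selection. Prss34, Mcpt8 and Ms4a2 are basophil and mast-cell genes, and Prss34 had UMIs in 7 progenitors on day 12 and 8 on day 10. Sirpb1c, a signal-regulatory protein of myeloid cells, had no UMI in progenitors, against 1661 UMIs in monocytes of day 12 and 804 of day 10, which makes it at least 33.2-fold and 57-fold lower. Of 14 dissociation-induced genes 7 were called lower in progenitors, Fos among them, an immediate early gene at 546 CPM in progenitors and 3349 CPM in monocytes on day 12 and at 805 and 5154 CPM on day 10.

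Few genes passed 2-fold between progenitors of day 12 and day 10. Of 6355 genes with at least 50 UMIs over both sums, 3.15% were at least 2-fold higher on day 12 and 2.17% at least 2-fold lower, and the median log2 ratio was 0.16. None of 11 further primary-granule genes, of 9 progenitor surface genes, of 13 transcription factors, of 26 secretory genes and of 15 ribosome-production genes passed 2-fold, with medians of 0.35, -0.03, 0.12, 0.22 and 0.15. With so few genes called among all, a count of 0 in lists of this size is near the background. The 4 rule genes, whose share chose the cells in both libraries, had a median of 0.43, with Elane 1.5-fold higher on day 12 (counting interval 1.44 to 1.56). Nkg7 was at 716 CPM on day 12 and at 391 CPM on day 10. Cxcr4, the chemokine receptor that holds neutrophils in the marrow, was just past 2-fold, at 57.8 CPM on day 12 and at 28.5 CPM on day 10, and fell under it with cells weighted equally. Cybb, a gene of the rule, was called at 36.6 and 16.4 CPM, and was at a log2 ratio of 0.97 without the basophil and eosinophil subsets. Sec61g, a secretory-channel gene outside the list of 26, was 9.56-fold lower on day 12. Of 16 S-phase genes Mcm2 and Cdc6 were called higher: Mcm2 was at 206 CPM on day 12 and at 98.4 CPM on day 10, and Cdc6, which loads the helicase, at 62.5 and 25.7 CPM. Nusap1, a spindle protein, was the 1 of 14 G2 and M genes called, at 40.1 CPM on day 12 and at 113 CPM on day 10.

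Genes of cartilage and of red cells also differed between these libraries. Of 8 cartilage genes 7 were called higher on day 12, with a median of 3.08, and Col2a1, the main cartilage collagen, was at 3147 CPM on day 12 and at 265 CPM on day 10, with 37.5% of the day 12 UMIs in 1 cell. Without progenitors that had over 3% RNA of other lineages the median was 1.72 and 5 of 5 genes were called. The sum of the list was at 5574 CPM on day 12 and at 592 CPM on day 10 in progenitors, at 6427 and 850 CPM in immature neutrophils and at 12835 and 2578 CPM in monocytes, so it was higher on day 12 in all 3 classes. Of 7 erythroid genes 6 were called lower on day 12 with a median of -1.63, and the list's sum was at 6851 CPM on day 12 and at 20061 CPM on day 10 in progenitors and at 5924 and 21411 CPM in immature neutrophils. With all 4 rule genes and a share of at least 0.6% asked of every progenitor the erythroid median turned to 0.37. Hba-a1 with Hba-a2, and Hbb-bs with Hbb-bt, are near-identical copies, so their separate values are uncertain.

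Among the 10 genes highest on day 12, Car3 and Cytl1 came mainly from 1 cell each, with 82.9% and 98.1% of the day 12 UMIs. Smpd3, Snorc, Col9a3, Matn3, Col11a2, Col2a1 and Crispld1 followed, mostly genes of cartilage and its growth plate. Ddx3y, on the Y chromosome, had 76 UMIs on day 12 and 0 on day 10, at least 41.9-fold higher, and the whole libraries held 4162, 2227, 16 and 12847 of its UMIs on days 7, 8, 10 and 12. The sex of the animals is not stated, and a difference in it between the libraries cannot be told apart from age. Among the 10 genes lowest on day 12, all 73 Adamts8 UMIs of day 10 came from 1 cell, 88.6% of the 289 Fabp4 UMIs from 1 cell, and the eosinophil genes Prg2, Epx and Ear1 from 4, 2 and 2 cells. Sec61g, a subunit of the channel into the endoplasmic reticulum, was spread over cells: it was at 42.5 CPM on day 12, with UMIs in 24 of 70 cells, and at 406 CPM on day 10, with UMIs in 58 of 87, against 358 and 418 CPM on days 7 and 8. Dennd5b, Eln, Hemgn and Tsix completed the list, and Tsix lies antisense to Xist, and no source used here gives the strand setting of the counting.

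**Figure D5:**
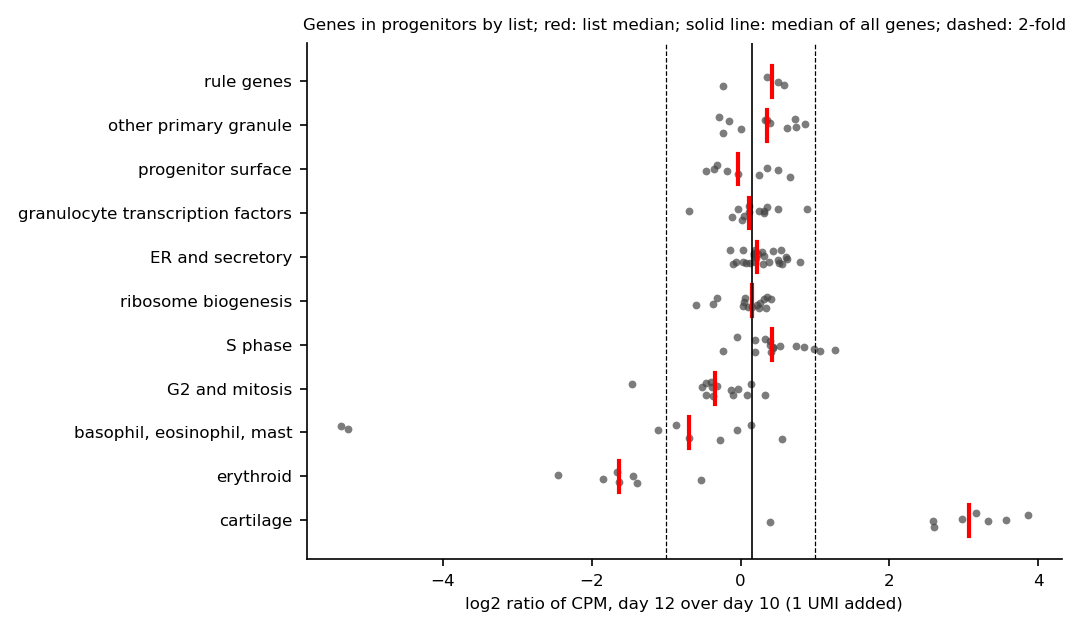
Log2 ratio of day 12 over day 10 in progenitors for the genes of each list with at least 50 UMIs over both sums, with a point per gene, a red bar at the list's median, dashed lines at 2-fold and a solid line at the median of all genes. The granule, progenitor, transcription factor, secretory and ribosome lists lie inside the dashed lines, while the cartilage list has a median of 3.08 and the erythroid list of -1.63.

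The 22 progenitors of days 7 and 8 held few UMIs in all, 33561 on day 7 and 148398 on day 8. Myb was at 626 and 276 CPM on days 7 and 8, Kit at 149 and 53.9 CPM, and Cebpe at 59.6 and 108 CPM. Calr was at 2384 and 2089 CPM on days 7 and 8, against 1249 and 1279 CPM on days 10 and 12, and Npm1 was at 4112 and 4400 CPM, against 2126 and 2820 CPM. Fcnb had no UMI on day 7, where a count of 0 allows up to 89.4 CPM, and was at 20.2 CPM on day 8. Gfi1 was at 89.4 CPM on day 7 from 3 UMIs and had no UMI on day 8, and Prss34 had none on either day. The heat shock genes Hspa1a and Hspa1b, near-identical copies, stood apart: Hspa1a was at 1251, 1018, 0 and 3.54 CPM on days 7, 8, 10 and 12, and Hspa1b at 1013, 741, 0.713 and 1.18 CPM. The list of dissociation-induced genes summed to 7985, 4070, 2372 and 1936 CPM in progenitors on these days. In immature neutrophils, with only 2 and 9 cells on days 7 and 8, it summed to 11897, 6685, 2098 and 3049 CPM. Monocytes did not share this order, with 9455, 7516, 10212 and 6823 CPM. Progenitors of the earlier days thus differ from those of the later days in stress genes as well as in age, and these cannot be told apart.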

How the data were processed

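The deposited data are UMI counts per gene and cell barcode, 1 matrix for each of the 4 libraries. Per the labels' protocols, droplets were made on a MobiNova-100 with a 3′ transcriptome kit and sequenced on an Illumina instrument. The submitters' processing notes name the build GRCm39, and no source used here gives the aligner or any filter before deposit. The deposited counts were used as they stand, and summed over the progenitors of a library. From these sums came CPM with exact Poisson intervals, shares with exact Clopper-Pearson intervals at 95%, and log2 ratios with 1 UMI added. Genes with 50 UMIs over both sums were compared and called at 2-fold. A count of 0 was given a limit of 3 counts. Monocytes were cells with a Ccr2 UMI and UMIs of at least 3 of the 7 monocyte genes that met the other limits and were not progenitors. Cartilage cells had cartilage genes at 1% of UMIs or more. No doublet caller was used, and RNA of other lineages is given instead. Python 3.11.15, NumPy 2.4.6, SciPy 1.17.1, pandas 2.3.3 and matplotlib 3.10.9 were used. The log2 ratio and its 2-fold call were tested on simulated data, and the intervals were not.

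The progenitors, the 34 gene lists and the alternatives were chosen with earlier results of these data known, and the subsets by depth, basophil genes and granule share after the values were seen. Genes could be named from the rule, from the up to 4 genes of a list with the highest CPM, when called in a list, from the 10 at either end of a comparison (names starting Gm or ending Rik left out), and from the 10 most concentrated in progenitors on day 12. Genes followed along the granule share, Flt3, Meis1 and Fcnb among them, and genes named as not called were chosen after their values were seen. Promoter sequences come from RefSeq tables of build GRCm38.p6, which matched all 4 rule genes by symbol. Coordinates of other genes are not used here. Some genes that met the naming rule are not reported here.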

Additional observations from a re-analysis of the deposited data

Results flagged for a closer look

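Vcam1, an adhesion molecule of endothelium, stroma and some macrophages, lay on opposite sides of monocytes in the later libraries. On day 12 it was at 11.8 CPM in progenitors and 54.4 CPM in monocytes, a log2 ratio of -2.07, and on day 10 at 47 CPM in progenitors and 14.6 CPM in monocytes, a log2 ratio of 1.7. The values rest on 10 UMIs in 9 progenitors on day 12 and 66 UMIs in 17 progenitors on day 10, of which 25.8% came from 1 cell. The difference between the days was not tested.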

How the results depend on the processing

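No paired analysis was possible because each day has 1 library and no library shares a replicate number with another of its day. For the same reason no replicate could be left out. The share of progenitors on day 7 was 0.00884% both with a granule share of 0.6% or more and with all 4 genes. On day 8 it was 0.465% of cells with at least 5000 UMIs. On day 10 it was 1.12% at a granule share of 0.15%, 0.598% at 0.6%, 0.618% with all 4 genes, 1.19% with no monocyte condition and 0.489% without cells over 3% other-lineage RNA. On day 12 it was 0.652% with no monocyte condition, 0.314% without such cells and 0.545% of cells with at least 5000 UMIs. In progenitors of day 12 against day 10, 521 genes were higher and 220 lower with cells weighted equally (70.3% higher, against 59.2% with summed counts), 534 and 317 at 20 UMIs or more, and 29 and 49 at 200 or more. Against immature neutrophils 537 were higher and 221 lower at 200 UMIs or more, and against monocytes 402 were higher; a higher minimum tests fewer genes. With all 4 genes and a share of at least 0.6% the day 12 to day 10 ratios of Hba-a2, Hbb-bs and Hbb-bt turned to 0.38, 0.39 and 0.37. With cells weighted equally Cd74 turned to 0.32 on day 10 against immature neutrophils, and against monocytes Col2a1 turned to 0.14 on day 10 and Matn3 to 0.13 on day 12 and 0.5 on day 10. The cause of these turns was not tested. Of 3290 values of named genes under the alternatives, 2896 stayed on their side of 2-fold within 1.5-fold of the reported ratio. Exclusions by depth over 5000 UMIs and by basophil or eosinophil genes, and of single cells from the ranges, were chosen after seeing the data.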

Other observations

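Most genes beside the granule genes on the chromosome were at or near 0 in progenitors, or low. Prtn3 and Elane lie side by side with Cfd, which encodes complement factor D, and Cfd was at 0 CPM in progenitors of day 12 and 0.713 CPM of day 10. Lpo, lactoperoxidase, lies beside Mpo and had no UMI in progenitors of either day, and Epx, eosinophil peroxidase, of the same cluster, had 0 UMIs on day 12 and 63 UMIs in 2 cells on day 10. Gzmb and Gzmc, granzymes of the Ctsg cluster, had no UMI, whereas Mcpt8 of that cluster was at 801 CPM on day 12 and at 974 CPM on day 10. R3hdm4, near Elane, was at 50.7 CPM in progenitors and 154 CPM in immature neutrophils on day 12 and at 42.8 and 106 CPM on day 10. Alas1, the first enzyme of heme synthesis and so of the heme of myeloperoxidase, was the 1 of 6 heme-synthesis genes called higher than in immature neutrophils. Among all genes 26.2% were so called, so the count says nothing particular about the list. Alas1 was at 173 CPM in progenitors and 44 CPM in immature neutrophils on day 12 and at 145 and 42.4 CPM on day 10.

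S100a8 and S100a9, whose proteins pair in calprotectin, differed in their course: S100a8 was at 2860, 3403, 4010 and 2178 CPM in progenitors on days 7, 8, 10 and 12, and S100a9 at 328, 411, 863 and 1622 CPM. Both are genes of the rule, which caps their sum. Adgrl4, an adhesion receptor known from endothelium, was at 387, 74.1, 120 and 74.3 CPM in progenitors on days 7, 8, 10 and 12, against 14.7 CPM in immature neutrophils of day 12 and 12.3 CPM of day 10. Markers of mature lymphocytes were nearly absent, with T and NK genes summing to 0, 0, 0.713 and 10.6 CPM on the 4 days.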
